A study of Mus musculus with 12 samples.

Results

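Interferon-stimulated genes are switched on when an interferon binds its receptor on the cell surface, and 40 of them were followed in mouse skin. The members were chosen by name, as interferon response genes together with the *Phf11* family and *Plac8*, with earlier results of these libraries over the 4 groups in view. All 40 were found by identifier among the 52636 genes of the deposited count table, and each of them passed edgeR's filter for genes with few counts. Because the list was picked with these values known, the counts and fold changes of its members are a description of the 4 groups and support nothing beyond it.

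Type I interferons signal through a receptor whose kinases set off the assembly of a complex with STAT2 and IRF9 that binds a repeated GAAA element in the promoters of these genes. IRF7, itself an interferon-stimulated gene, amplifies the response by switching on more interferon. The products include sensors of foreign nucleic acid, enzymes that start the breakdown of viral RNA or alter the nucleotide supply, proteins that block translation or virus release, and the ubiquitin-like modifier ISG15. In skin they are made by keratinocytes, fibroblasts and resident and recruited leukocytes.

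Full-thickness dorsal skin of C57BL/6 mice, 3 months old by the labels, was collected on day 14 and sequenced as RNA, with 3 mice in each of 4 groups. In WT mice *Cdc42* was intact, and by the study's supplement these controls carried floxed *Cdc42* (loxp/wt or loxp/loxp) without Cre. In KO mice both floxed copies were exposed to Cre recombinase driven by the keratin K5 promoter, so that *Cdc42* was deleted in the basal keratinocyte lineage and not in dermal or blood-borne cells. WT and KO mice received the vehicle, normal saline with hydroxypropyl methylcellulose, on shaved skin, and WT+ZnO NPs and KO+ZnO NPs mice received zinc oxide nanoparticles suspended in it. The comparison of KO with WT asked what a weakened epidermal barrier does to the skin, and the comparisons with ZnO NPs asked how intact and weakened skin respond to the particles.

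The libraries held 21076320 to 28867802 counts. Levels are in CPM, the counts of a gene set against those of its whole library, with library sizes adjusted by the TMM method of edgeR. *Cdc42*, the deleted gene, lay at 606 to 628 CPM in WT and at 415 to 464 CPM in KO. It lay at 311 to 350.1 CPM in skin labelled WT+ZnO NPs, below every KO library, and at 314 to 453 CPM in KO+ZnO NPs. Against WT, edgeR gave *Cdc42* a log2 fold change of -0.92 in skin labelled WT+ZnO NPs, with an adjusted p below 0.05. In KO it gave -0.49, which was lower only at an unadjusted p below 0.05. In whole skin the transcript thus does not bear out the label WT+ZnO NPs, and it separates KO from WT only weakly. Transcripts of 4 Y-linked genes summed to 191.7 to 241.7 CPM in all 3 libraries labelled WT+ZnO NPs, in KO replicate 1 and in KO+ZnO NPs replicate 1, and *Xist* marked the other libraries, while the study's methods describe the KO mice as female. Each comparison of skin labelled WT+ZnO NPs with WT is therefore also a comparison of libraries with and without Y-linked transcripts, and the contributions of treatment, sex and label cannot be told apart there. Keratinocyte markers (5810 to 26020 CPM in sum) and fibroblast markers (7049 to 37280 CPM) were present in every library, so the labelled tissue could be recognised, and both lists summed higher in every KO library than in every WT library. In whole skin, fewer cells of a type and less RNA per cell cannot be told apart.

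Since the pathway is known to act through a promoter element, 4 promoters are printed here from RefSeq (GRCm38.p6), each from 250 bases before to 50 bases after the annotated start. They belong to the 3 members with the deepest fall between skin labelled WT+ZnO NPs and WT skin, which hold the searched motif, and to *Oasl1*, which does not. The motif was 2 copies of GAAA separated by 2 bases (GAAANNGAAA), read on both strands, and is printed in capitals. Matches to it may overlap, and every match inside a window was counted.
*Phf11b*, chr14:59341281-59341580, minus strand: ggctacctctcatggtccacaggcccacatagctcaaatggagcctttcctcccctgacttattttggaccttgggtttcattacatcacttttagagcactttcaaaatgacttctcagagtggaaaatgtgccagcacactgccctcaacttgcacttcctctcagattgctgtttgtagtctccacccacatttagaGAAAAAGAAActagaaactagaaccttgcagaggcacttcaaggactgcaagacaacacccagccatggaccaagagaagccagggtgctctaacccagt
*Phf11a*, chr14:59297473-59297772, minus strand: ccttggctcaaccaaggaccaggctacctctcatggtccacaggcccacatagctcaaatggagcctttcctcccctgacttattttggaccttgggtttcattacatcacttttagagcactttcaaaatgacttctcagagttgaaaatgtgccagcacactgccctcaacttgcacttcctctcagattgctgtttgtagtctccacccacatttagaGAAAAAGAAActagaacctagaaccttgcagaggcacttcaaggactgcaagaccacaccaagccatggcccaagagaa
*Oas3*, chr5:120777610-120777909, minus strand: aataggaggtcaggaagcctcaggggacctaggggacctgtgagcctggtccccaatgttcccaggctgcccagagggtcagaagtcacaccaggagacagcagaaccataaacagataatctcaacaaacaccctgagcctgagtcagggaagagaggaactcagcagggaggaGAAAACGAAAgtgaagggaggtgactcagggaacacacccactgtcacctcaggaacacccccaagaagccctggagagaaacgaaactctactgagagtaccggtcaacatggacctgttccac
*Oasl1*, chr5:114922990-114923289, plus strand: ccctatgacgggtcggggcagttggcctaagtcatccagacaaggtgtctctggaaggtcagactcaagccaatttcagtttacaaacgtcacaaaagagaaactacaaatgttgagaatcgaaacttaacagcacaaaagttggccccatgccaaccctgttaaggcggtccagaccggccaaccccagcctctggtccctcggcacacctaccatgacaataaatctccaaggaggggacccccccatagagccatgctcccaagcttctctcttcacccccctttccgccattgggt

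The motif starts 50 bases before the annotated start in *Phf11b*, 29 bases before it in *Phf11a* and 75 bases before it in *Oas3*. The promoters of *Phf11a* and *Phf11b* are near copies: shifted by 21 bases, they have the same letter at 274 of 279 aligned positions (98.2%). Of the 40 members, 31 had a promoter in the table, and 15 of these (48.4%) held the motif in at least 1 window. Among all 27025 genes with a promoter, 3.99% held it, and among 35 further interferon-stimulated genes 51.4% did. *Isg15* holds 3 overlapping matches, starting 78, 72 and 66 bases before its start, and *Bst2*, *Oas1a*, *Ifit1*, *Ifit3* and *Ifit3b* hold 2 each. *Irf7*, *Irf9*, *Oasl2*, *Ifit2*, *Samd9l*, *Plac8* and *Phf11d* are among the members with no match in this window.

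In WT skin the 40 genes were transcribed at levels far apart. Per kilobase of annotated exons, the highest mean level in WT was that of *Bst2* (315 CPM per kb), which codes for tetherin, a membrane protein that holds budding virus on the cell. It was followed by *Lgals3bp* (169 CPM per kb), a secreted galectin-binding glycoprotein, *Plac8* (132 CPM per kb), *Isg15* (120 CPM per kb), *Irf7* (109 CPM per kb) and *Ifit3* (107 CPM per kb). At the other end, *Mx2* had 2.53 CPM per kb, *Herc6* 2.23 CPM per kb and *Phf11c* 0.886 CPM per kb.

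The WT libraries stood on top in nearly every member, while the order of the other groups varied. In 39 of the 40 genes each WT library lay above all 9 other libraries, which held for 8.5% of all genes tested, and the exception was *Phf11c*. The most common order of the group means, found in 27 members, was WT, then KO, then KO+ZnO NPs, then WT+ZnO NPs. Summed over the 40 genes, WT libraries held 5436, 3305 and 3476 CPM and KO libraries 627.7, 828.4 and 772.1 CPM. The sums were 568.7, 427.5 and 571.7 CPM in KO+ZnO NPs and 397.5, 414.1 and 335.9 CPM in skin labelled WT+ZnO NPs. The WT libraries thus stand clear of the rest, while the 2 treated groups and KO lie close together.

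WT replicate 1 was the highest of the 12 libraries in 39 members. Within KO, replicate 1 was the lowest library in 35 members, and within KO+ZnO NPs, replicate 2 was the lowest in 30. A mean of log2 CPM over the 40 genes, with a prior count of 2, put WT replicate 1 at 6.51 against 5.82 and 5.92 for the other two WT libraries. KO replicate 1, which holds Y-linked transcripts, stood at 3.04 against 3.59 and 3.43.

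**Figure D1:**
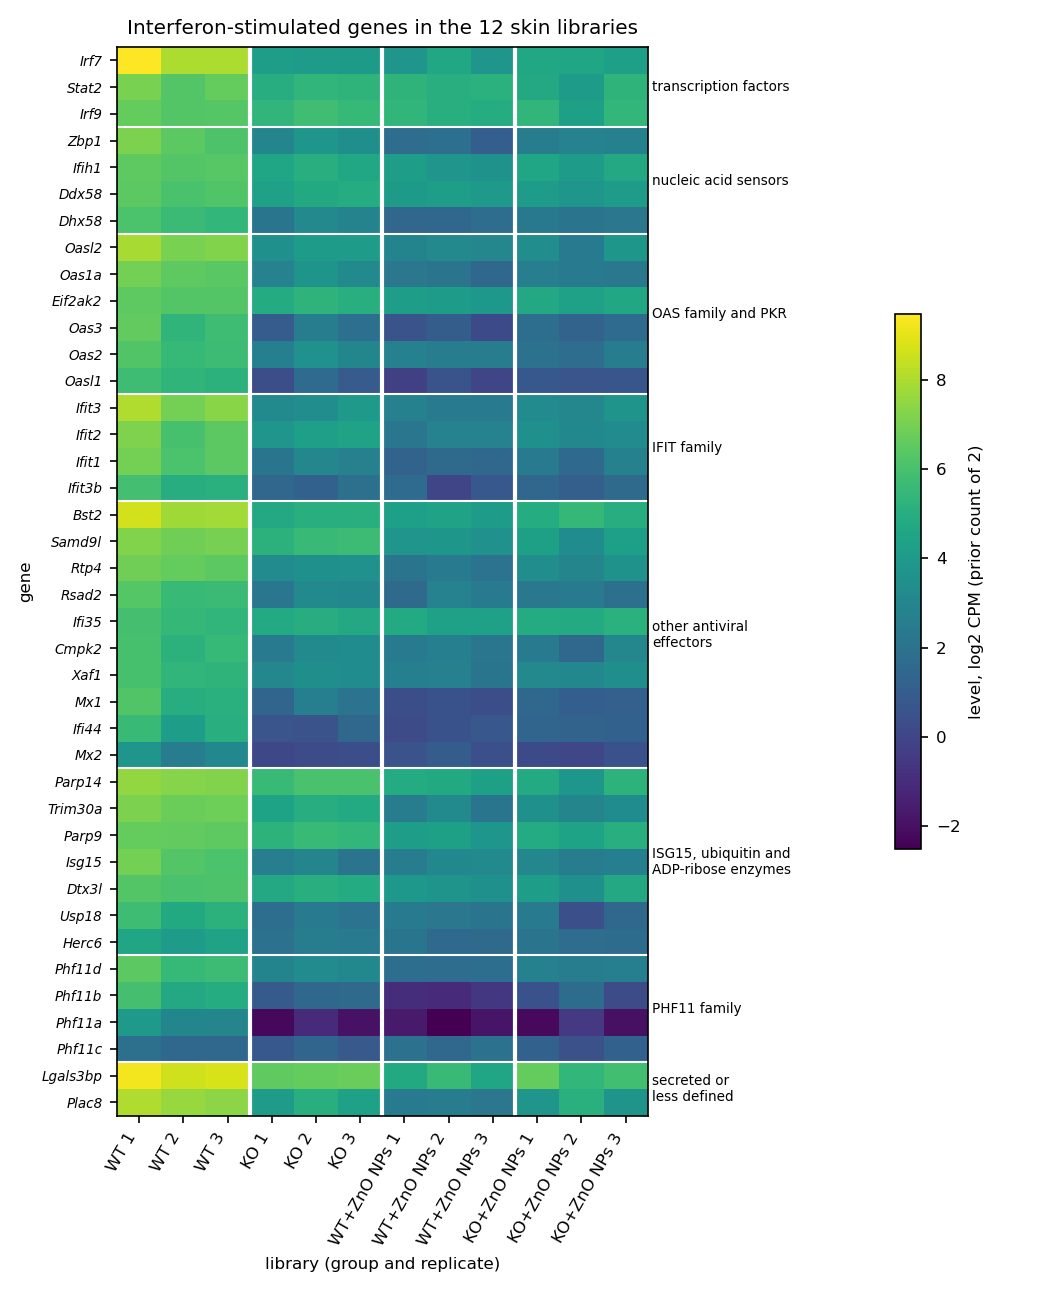
Level of each of the 40 genes (rows, grouped by role) in each of the 12 libraries (columns), as log2 CPM (prior count 2). The WT columns are the brightest in every row but that of *Phf11c*, and WT replicate 1 is the brightest of all 12 columns in 39 rows.

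The factors that drive the pathway were lower outside WT, to very different depths. *Irf7* (ENSMUSG00000025498, on chromosome 7) had 715, 259.7 and 260.4 CPM in WT and 18.4, 17.3 and 16 CPM in KO. It had 13.4, 25.4 and 13.4 CPM in skin labelled WT+ZnO NPs and 25.7, 23.6 and 19.2 CPM in KO+ZnO NPs. Each WT library stood an order of magnitude above the 9 others. Every KO+ZnO NPs library lay above every KO library, with a log2 fold change of 0.40 that did not pass the test, and skin labelled WT+ZnO NPs overlapped both.

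*Stat2* (ENSMUSG00000040033, on chromosome 10) and *Irf9* (ENSMUSG00000002325, on chromosome 14), whose products belong to the complex that binds the GAAA element, differed less from WT. *Stat2* had 133, 77.7 and 99.1 CPM in WT, 31.1, 41.7 and 39.6 CPM in KO, 39.4, 32.5 and 35.2 CPM in skin labelled WT+ZnO NPs and 26.1, 17.1 and 39.6 CPM in KO+ZnO NPs. The WT libraries stood apart and the other three groups overlapped. *Irf9* had 100.5, 78.3 and 78.8 CPM in WT, 41.4, 55.6 and 45.4 CPM in KO, 41.4, 31.7 and 29.6 CPM in skin labelled WT+ZnO NPs and 41.8, 19.8 and 43.7 CPM in KO+ZnO NPs. Its 3 KO libraries all lay below its 3 WT libraries, but the log2 fold change of -0.85 (standard error 0.27) did not pass the test, with an edgeR adjusted p of 0.0746.

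**Figure D2:**
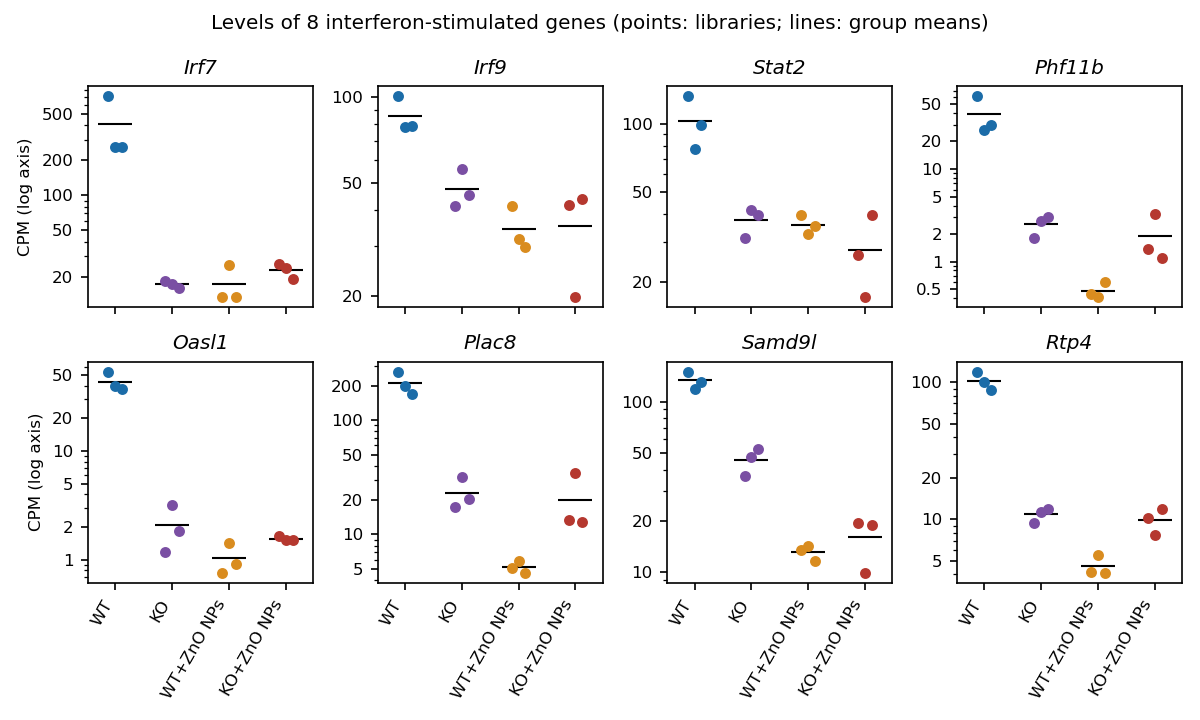
Levels of 8 members in each library (points, CPM on a log axis) by group, with lines at the group means of 3 libraries. In each panel the 3 WT points lie above all others, and the treated KO points of *Plac8*, *Phf11b* and *Rtp4* lie above those of skin labelled WT+ZnO NPs.

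Between KO and WT, with no particles applied, 38 of the 40 members fell, and no member was called higher. Among all 18822 genes tested, 3.58% were called lower and 4.61% higher in KO. The median log2 fold change of the members was -3.0, against 0.01 over all genes tested, and the values ran from -5.41 to -0.63. In all 40 every KO library lay below every WT library, which held for 19.9% of all genes tested, while 18.6% had every one above. *Irf9* and *Phf11c* did not pass the test, the latter with a log2 fold change of -0.63 (edgeR adjusted p = 0.219). *Irf9* gained the call in 4 of 23 alternative fits, DESeq2 on all 12 libraries and on only the groups compared among them. Called means an adjusted p under 0.05 by the quasi-likelihood test of edgeR, which was fitted to all genes and all 12 libraries and adjusted by the Benjamini-Hochberg method.

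The deepest falls between KO and WT were those of *Phf11a*, *Irf7* and *Oasl1*. *Phf11a* (ENSMUSG00000044703, on chromosome 14), of a family of zinc finger proteins, had 15.2, 7.93 and 7.65 CPM in WT and 0.128, 0.402 and 0.176 CPM in KO, and its log2 fold change was -5.41 (standard error 0.64). Its KO libraries held only 3, 10 and 4 counts. *Irf7* had a log2 fold change of -4.58 (standard error 0.44), which was -3.92 without WT replicate 1, and that of *Phf11a* was -6.02 without KO replicate 2. *Oasl1* (ENSMUSG00000041827, on chromosome 5), a relative of the oligoadenylate synthetases known to restrain translation of *Irf7*, had 53.9, 39.8 and 37.1 CPM in WT and 1.19, 3.17 and 1.85 CPM in KO, a log2 fold change of -4.39 (standard error 0.37).

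All members of several functional families were called lower in KO. The 4 nucleic acid sensors fell: *Zbp1*, a sensor of Z-form nucleic acid, by 3.2 on the log2 scale, *Dhx58* (LGP2) by 3.0, *Ifih1* (MDA5) by 1.61 and *Ddx58* (RIG-I) by 1.56. All 6 genes of the oligoadenylate synthetase and PKR group fell, from *Oasl1* to *Eif2ak2*, the kinase PKR that stops translation on double-stranded RNA, with a log2 fold change of -1.29. The 4 IFIT genes, whose proteins bind viral RNA at its 5′ end, ranged from -4.01 in *Ifit3* to -2.45 in *Ifit2*.

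The 10 other antiviral effectors were all called lower in KO, with a median log2 fold change of -3.03. They ran from *Ifi44* (-4.11), a gene of less defined function, to *Ifi35* (-0.77, edgeR adjusted p = 0.0341), a protein that binds NMI. *Mx1* and *Mx2*, of the Mx family of GTPases, had -3.44 and -3.07. *Rsad2* (viperin), whose product makes a nucleotide chain terminator, and its neighbour *Cmpk2*, which codes for a nucleotide kinase, had -2.99 and -2.56. *Bst2* had -3.22, *Rtp4* -3.24, *Xaf1*, a pro-apoptotic factor, -2.32 and *Samd9l*, a restrictor of translation and growth, -1.55.

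Of the group around ISG15, ubiquitin and ADP-ribose, *Isg15* itself was lower by 3.93 on the log2 scale and *Usp18*, the protease that removes ISG15 and damps the receptor, had a log2 fold change of -3.17. *Herc6*, the ligase that attaches ISG15 in mice, had -2.05, and *Trim30a*, a ubiquitin ligase, -2.16. *Parp14* (-1.46), *Dtx3l* (-1.28) and *Parp9* (-1.15), which act in ADP-ribosylation, had the smallest called falls of the group. Of 23 alternative fits, the call between KO and WT ended in 7 for *Ifi35*, 5 for *Parp14*, 2 for *Dtx3l* and 2 for *Stat2*, and in 0 for the other called members. In the *Phf11* family, *Phf11b* had -3.95 and *Phf11d* -2.86. *Plac8* had -3.18 and *Lgals3bp* -2.26.

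The KO libraries were not alike in sex-linked transcripts, so the comparison was repeated in libraries without them. With only the libraries that lacked Y-linked transcripts, 34 members were called lower in KO, a choice made after the values were seen. That fit left KO replicate 1 out, and the share of all genes called in it was not computed. The members were chosen with these libraries in view, so the part of sex in their levels was not tested. Leaving out 1 library at a time gave 34 to 39.

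Between skin labelled WT+ZnO NPs and WT skin, 39 of the 40 members fell and none was called higher. Much of the transcriptome was called here: 22.1% of all genes tested were lower and 20.8% higher. The median log2 fold change of the members was -3.87, against 0.06 over all genes tested. In 39 every library labelled WT+ZnO NPs lay below every WT library, which held for 29.3% of all genes tested, while 30.1% had every one above. *Phf11c* was the exception, with 3.96, 2.79 and 4.0 CPM in skin labelled WT+ZnO NPs and 3.69, 2.74 and 2.76 CPM in WT, and these groups overlapped (log2 fold change 0.23).

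*Phf11b*, *Phf11a* and *Oas3*, whose promoters are printed above, fell most. *Phf11b* (ENSMUSG00000091649, on chromosome 14) had 61.7, 26.4 and 29.9 CPM in WT and 0.44, 0.411 and 0.593 CPM in skin labelled WT+ZnO NPs, a log2 fold change of -6.33 (standard error 0.55). Its levels in KO were 1.79, 2.77 and 3.04 CPM and in KO+ZnO NPs 1.35, 3.28 and 1.09 CPM, so the KO groups lay between those extremes. *Phf11a* had 0.24, 0.0914 and 0.198 CPM in skin labelled WT+ZnO NPs, from 6, 2 and 5 counts, and 0.131, 0.605 and 0.174 CPM in KO+ZnO NPs, and its log2 fold change against WT was -5.81 (standard error 0.66) in the former. *Oas3* (ENSMUSG00000032661, on chromosome 5), a synthetase of the oligoadenylates that activate RNase L, had 95.9, 39.8 and 53.5 CPM in WT and 1.40, 1.97 and 1.07 CPM in skin labelled WT+ZnO NPs, a log2 fold change of -5.42 (standard error 0.49). *Oas3* had 1.87, 5.75 and 3.57 CPM in KO and 3.40, 2.37 and 3.14 CPM in KO+ZnO NPs. Over the alternative fits the log2 fold change in skin labelled WT+ZnO NPs ran from -6.56 to -5.64 in *Phf11b*. It ran from -6.08 to -4.47 in *Phf11a* and from -5.67 to -4.98 in *Oas3*.

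By role, the IFIT genes had log2 fold changes of -5.09 (*Ifit1*) to -4.00 (*Ifit2*), and the oligoadenylate synthetase and PKR group -5.42 (*Oas3*) to -2.29 (*Eif2ak2*). Among the sensors, *Zbp1* had -5.07, *Dhx58* -4.20, *Ifih1* -2.52 and *Ddx58* -2.20. The 10 other antiviral effectors had a median of -3.43, between -5.22 for *Mx1* and -1.07 for *Ifi35*. The transcription factors had the smallest median of the groups of roles, -1.53, with -4.57 for *Irf7* (-3.91 without WT replicate 1), -1.53 for *Stat2* and -1.33 for *Irf9*.

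Alternative fits gave 37 to 39 members in this comparison. With Y-linked transcripts as a covariate, which leans on the KO and KO+ZnO NPs libraries that differ in them, 38 members were called lower.

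**Figure D3:**
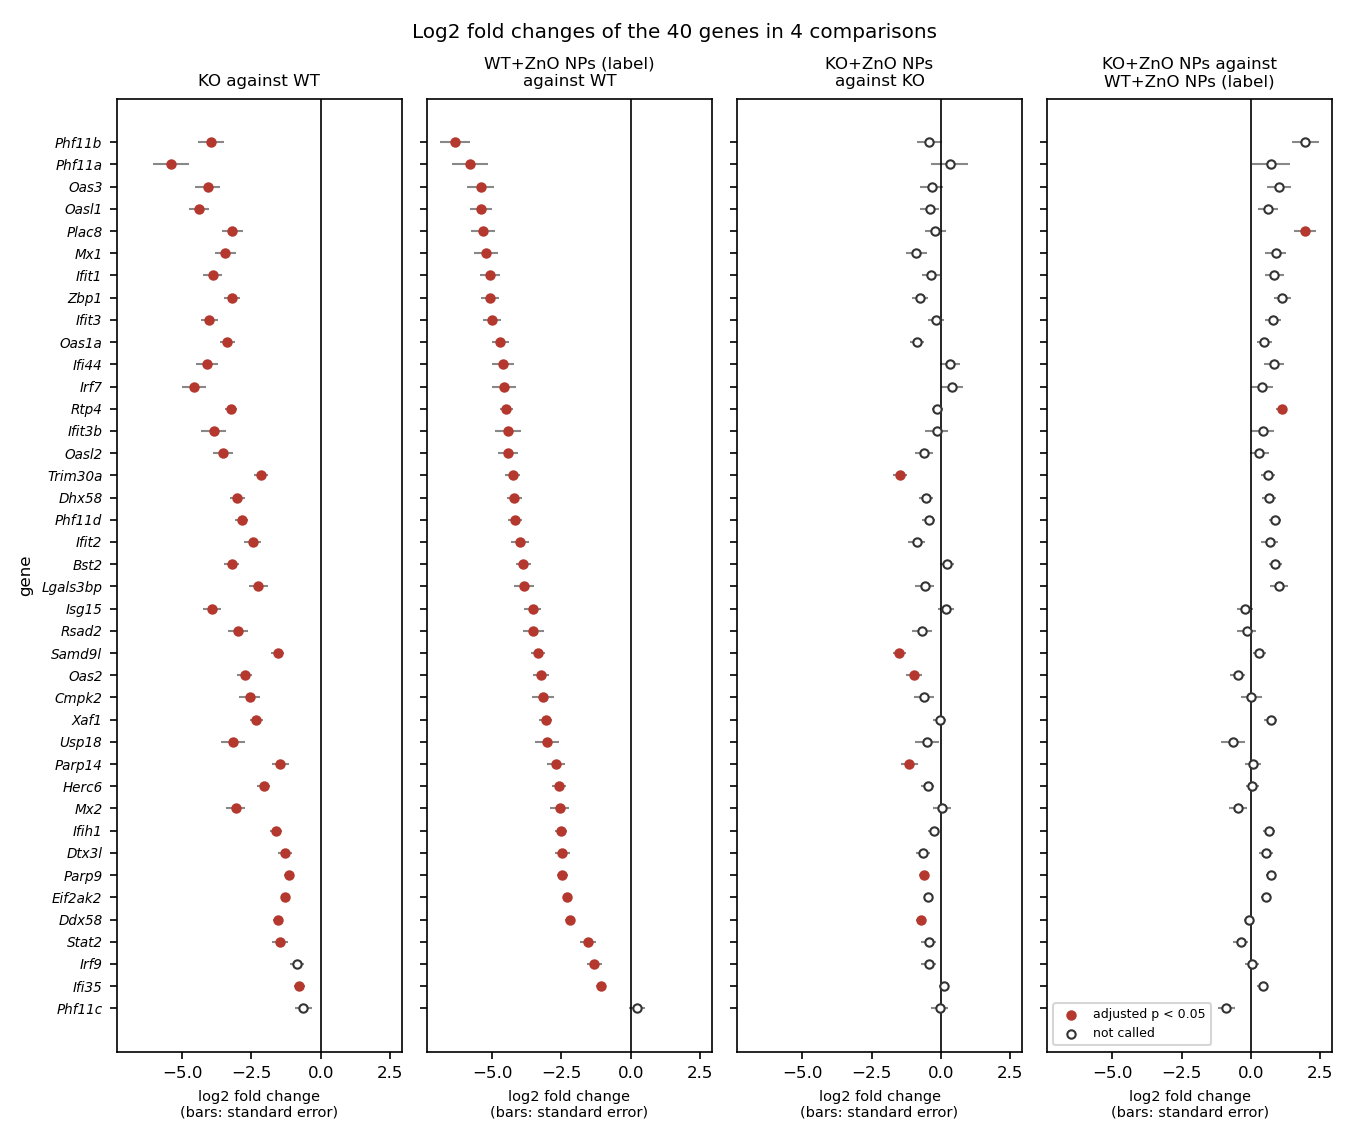
Log2 fold changes of the 40 genes (rows) in 4 comparisons (panels), with bars for the approximate standard error and filled points for an adjusted p below 0.05. The left-hand panels lie almost wholly below 0, with medians of -3.0 and -3.87, and the right-hand panels lie near 0, with medians of -0.44 and 0.58.

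Between KO+ZnO NPs and KO the members moved little. The test called 6 of the 40 lower and none higher, against 8.09% lower and 6.57% higher among all genes tested. The median log2 fold change was -0.44, against 0.01 over all genes tested. At an unadjusted p below 0.05, 13 members were lower and none higher, but the share of all genes at that threshold was not computed. In 28 members the libraries of the 2 groups overlapped, in 11 every KO+ZnO NPs library lay below every KO library, and in *Irf7* every one lay above. Among all genes tested, 17.7% had every KO+ZnO NPs library below and 17% above.

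The falls past the threshold were those of *Samd9l*, *Trim30a*, *Parp14*, *Oas2*, *Ddx58* and *Parp9*. *Samd9l* (ENSMUSG00000047735, on chromosome 6) had 36.7, 47.2 and 52.6 CPM in KO and 19.4, 9.93 and 18.9 CPM in KO+ZnO NPs, a log2 fold change of -1.50 (standard error 0.24, edgeR adjusted p = 0.00753). Its levels in WT were 150, 119 and 131 CPM, and in skin labelled WT+ZnO NPs 13.4, 14.3 and 11.7 CPM. *Trim30a* (ENSMUSG00000030921, on chromosome 7) had 21.9, 31.0 and 28.6 CPM in KO and 11.5, 7.66 and 10 CPM in KO+ZnO NPs, a log2 fold change of -1.48 (standard error 0.25, edgeR adjusted p = 0.00887). It had 139, 110.5 and 115 CPM in WT and 5.88, 8.86 and 4.31 CPM in skin labelled WT+ZnO NPs. The KO and KO+ZnO NPs libraries did not overlap in either gene.

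*Parp14* (ENSMUSG00000034422, on chromosome 16), an ADP-ribosyltransferase, had 47.5, 64.9 and 65.0 CPM in KO and 27.9, 13.9 and 38.3 CPM in KO+ZnO NPs, a log2 fold change of -1.15 (standard error 0.31, edgeR adjusted p = 0.0336). It had 183, 159 and 147 CPM in WT and 29.3, 27.3 and 19.5 CPM in skin labelled WT+ZnO NPs. *Oas2* had a log2 fold change of -0.97, *Ddx58* one of -0.72 and *Parp9* one of -0.60, with edgeR adjusted p values of 0.0412, 0.023 and 0.0473. Of 24 alternative fits, the call ended in 17 for *Parp9*, 13 for *Oas2*, 7 for *Parp14*, 4 for *Ddx58* and 1 for *Samd9l*, and in 0 for *Trim30a*. None of the 4 IFIT genes, the 4 *Phf11* genes or the 3 transcription factors passed the edgeR test. The IFIT values lay between -0.87 and -0.15, and DESeq2 called 1 of them lower, *Ifit2*, on all 12 libraries and on only the groups compared.

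This count depended on the libraries and the fit. Without KO replicate 2, without KO replicate 3 and without KO+ZnO NPs replicate 2 it was 2 in each case, and without KO+ZnO NPs replicate 1 it was 3. An edgeR fit to only these 6 libraries called 1, and one without the WT group, chosen after the values were seen, called 3. DESeq2 called 9 lower on all 12 libraries and 6 lower on only the groups compared.

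Between the treated groups, 2 members were higher in KO+ZnO NPs than in skin labelled WT+ZnO NPs and none was lower. Y-linked transcripts were present in every library labelled WT+ZnO NPs but only in replicate 1 of KO+ZnO NPs. The contributions of genotype, sex and label cannot be told apart here. Among all genes tested, 2.13% were higher and 1.16% lower. The median log2 fold change of the members was 0.58, against 0.04 over all genes tested. At an unadjusted p below 0.05, 20 members were higher and 1, *Phf11c*, was lower, again without a share of all genes to set beside them. In 17 members every KO+ZnO NPs library lay above every library labelled WT+ZnO NPs, in 1 every one lay below, and in 22 the libraries overlapped. Among all genes tested, 13% had every KO+ZnO NPs library above and 10.8% below.

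*Plac8* (ENSMUSG00000029322, on chromosome 5), a small cysteine-rich protein of leukocytes and epithelia, had 13.4, 34.2 and 12.9 CPM in KO+ZnO NPs and 5.08, 5.89 and 4.63 CPM in skin labelled WT+ZnO NPs, a log2 fold change of 1.96 (standard error 0.39, edgeR adjusted p = 0.0349). It had 266, 197 and 168 CPM in WT and 17.3, 31.8 and 20.3 CPM in KO. Replicate 2 of KO+ZnO NPs was the highest of its group here, unlike in most members, and without it the log2 fold change was 1.33 (edgeR adjusted p = 0.0516). *Rtp4* (ENSMUSG00000033355, on chromosome 16), a chaperone of receptors that also restrains the interferon response, had 10.2, 7.66 and 12 CPM in KO+ZnO NPs and 4.16, 5.53 and 4.07 CPM in skin labelled WT+ZnO NPs, a log2 fold change of 1.12 (standard error 0.20, edgeR adjusted p = 0.0304). *Rtp4* had 120, 101 and 87.8 CPM in WT and 9.44, 11.3 and 11.8 CPM in KO.

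Both calls rested on the fit. Neither *Plac8* nor *Rtp4* passed when edgeR was run on only the 6 treated libraries (adjusted p of 0.193 and 0.202) or with Y-linked transcripts as a covariate (0.148 and 0.126). DESeq2 on all 12 libraries called 10 members higher and 1 lower, and on only the groups compared 6 higher. Libraries of all groups shared the estimate of spread, and leaving out 1 library at a time gave 0 to 3 calls. The calls were 0 without WT replicate 2 or 3, without replicate 1 or 3 of skin labelled WT+ZnO NPs, without KO replicate 3 and without KO+ZnO NPs replicate 1, and the count was 1 without replicate 2 of skin labelled WT+ZnO NPs.

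The difference between the genotypes in their change with ZnO NPs was tested as an interaction, the log2 fold change from KO to KO+ZnO NPs less that from WT to skin labelled WT+ZnO NPs. It was called higher in 36 of the 40 members and lower in none, against 5.08% higher and 3.59% lower among all genes tested. The median over the members was 3.19, against 0.02 over all genes tested. A positive value here means that the log2 fold change with ZnO NPs was higher, in most members less negative, in the KO groups, whose vehicle libraries were already at a low level. Of the 40 values between KO+ZnO NPs and KO, 7 lay above 0, among them those of *Irf7* (0.40) and *Phf11a* (0.32). The *Phf11a* value rests on few counts and ran from -0.6 to 0.957 when 1 library was left out. The interaction uses the same WT and KO libraries as the comparisons above and adds no samples to them.

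The largest values were those of *Phf11a* (6.12, standard error 0.92), *Phf11b* (5.91, standard error 0.68) and *Plac8* (5.14, standard error 0.55). Without KO+ZnO NPs replicate 2 they were 5.17, 5.26 and 4.50, so the order of *Phf11a* and *Phf11b* turned. *Plac8* then lay below *Oas3*, *Oasl1* and *Ifi44*, whose lowest values with 1 library left out were 4.658, 4.729 and 4.565. *Irf9*, *Stat2*, *Parp14* and *Phf11c* did not pass the test. *Parp14* was just outside it, at 1.54 with an edgeR adjusted p of 0.0514. With Y-linked transcripts as a covariate 25 members were called.

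The interferons themselves were close to absent from the reads. Of 21 interferon genes matched by name, 13 had 0 counts in every library and none passed the filter on low counts. *Ifnb1*, the interferon-beta gene, had 2, 1 and 0 counts in the WT libraries and 0 in the other 9. *Ifng*, which codes for interferon-gamma, had the highest count of any of them in any library, 7. A count of 0 in these libraries allows a level of up to 0.104 to 0.142 CPM, taken as 3 counts of the total, and this floor covers counting error only. Differences in interferon transcripts were not detectable at this depth.

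The receptors and kinases upstream of the members had median log2 fold changes of -0.21 in KO and -0.82 in skin labelled WT+ZnO NPs against WT. Of 12 receptor and JAK-STAT genes, none was called by edgeR between KO and WT, where 4 were lower and 2 higher at an unadjusted p below 0.05 and DESeq2 on all 12 libraries called 2 lower and 1 higher. Between skin labelled WT+ZnO NPs and WT skin, 9 fell and 1 rose, with log2 fold changes of -1.97 for *Ifnar2*, a chain of the type I interferon receptor, -1.83 for *Il10rb*, a chain of the interferon-lambda receptor, -1.51 for *Ifngr1* and -1.48 for *Jak1*. Between KO+ZnO NPs and KO, 4 fell, namely *Il10rb* (-1.12), *Ifnar1* (-0.96), *Ifnar2* (-0.72) and the kinase gene *Tyk2* (-0.51). *Ifngr1* (0.98) and *Jak1* (0.77) were higher in KO+ZnO NPs than in skin labelled WT+ZnO NPs.

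Among 21 genes of nucleic acid sensing and interferon induction outside the members, 6 were lower in KO than in WT and none higher. They included *Ifi204* (-2.63), of the AIM2-like receptors, *Irf5* (-1.07), the ubiquitin ligase *Trim25* (-1.01), which activates RIG-I, and *Tlr3* (-1.0), the endosomal receptor for double-stranded RNA. In skin labelled WT+ZnO NPs 17 were lower than in WT and 1 was higher, led by the endosomal receptors *Tlr9* (-6.10), *Tlr8* (-5.28) and *Tlr7* (-4.99). Between KO+ZnO NPs and KO 6 were lower, again with *Tlr9* (-2.44), *Tlr8* (-2.24) and *Tlr7* (-2.01), and with *Irf8* (-1.74), a factor of monocytes and dendritic cells. Between the treated groups none was called by edgeR. At an unadjusted p below 0.05, 6 were higher and 1 lower, and DESeq2 on all 12 libraries called 4 higher and 1 lower. The interaction was called higher in 8.

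A further list of 41 interferon-stimulated genes, of which 39 passed the filter, is from textbook knowledge and was also written with results of these data known. Between KO and WT 28 of them fell and none rose, with a median log2 fold change of -1.28. They included *Ifi27l2a* (-4.22), *Trim30d* (-3.87), the oligoadenylate synthetase *Oas1g* (-3.80) and *Apol9a* (-2.25). With only the libraries that lack Y-linked transcripts 18 were called. Between skin labelled WT+ZnO NPs and WT skin 38 fell (median -2.13), from *Trim30d* at -6.46. Between KO+ZnO NPs and KO 10 fell, among them *Sp110* (-1.80), *Ddx60* (-1.69) and *Slfn5* (-1.18), and 1 rose, *Ifi27l2a* (1.45). That count of 11 was 4, 5 and 7 without KO replicate 2, KO replicate 3 and KO+ZnO NPs replicate 2.

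Between the treated groups only *Ly6e*, a membrane protein that hinders virus fusion, was called (0.90, edgeR adjusted p = 0.0417). The count was 0 when any 1 library other than replicates 2 and 3 of KO+ZnO NPs was left out, and DESeq2 on all 12 libraries called 7 genes of the list higher. The interaction was called higher in 28 genes of this list, and in 18 without replicate 3 of skin labelled WT+ZnO NPs, without KO replicate 1 or without KO replicate 3. With Y-linked transcripts as a covariate it was called in 4.

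Genes that respond above all to interferon-gamma had a median log2 fold change of -1.0 in KO and -1.69 in skin labelled WT+ZnO NPs against WT. Of 25 such genes 24 were tested, and 10 fell between KO and WT, including the guanylate-binding proteins *Gbp6* (-2.32), *Gbp3* (-2.16) and *Gbp2* (-1.82) and the immunity-related GTPase *Irgm1* (-1.81). In skin labelled WT+ZnO NPs 17 were lower than in WT. Between KO+ZnO NPs and KO 3 fell, *Ciita* (-2.51), the master factor of MHC class II, *Ifi47* (-1.19) and *Gbp7* (-1.13), and *Psme2* of the immunoproteasome rose (0.80). Between the treated groups none was called by edgeR, with 3 higher and none lower at an unadjusted p below 0.05 and 1 called higher by DESeq2 on all 12 libraries.

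**Figure D4:**
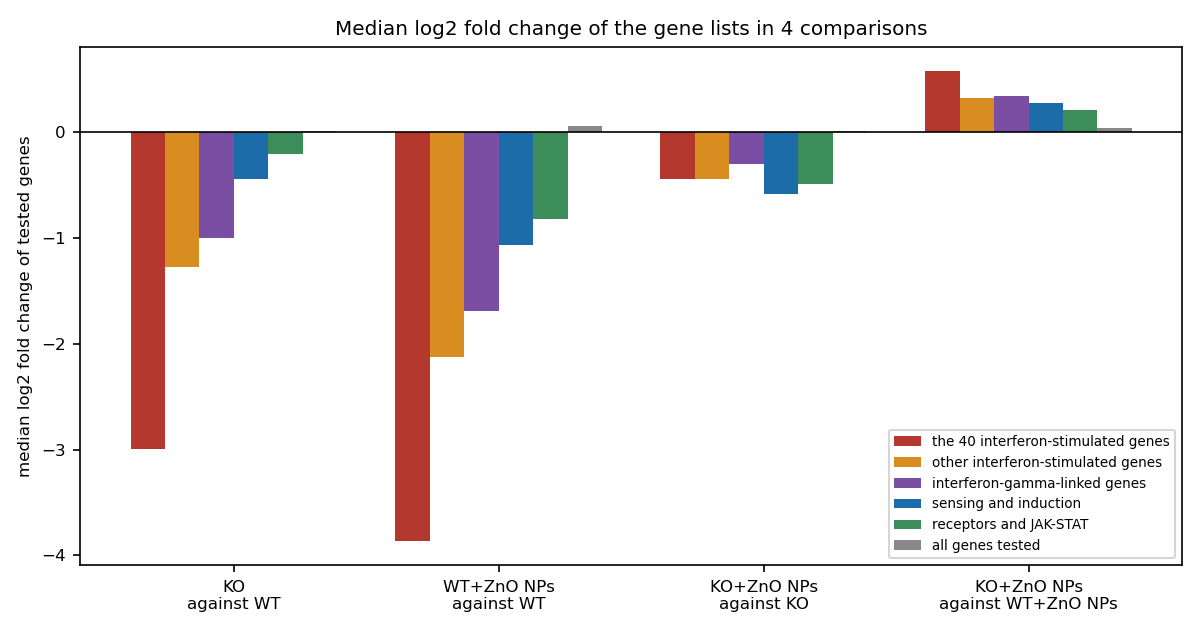
Median log2 fold change of the tested genes (bars) for the 40 members, 4 lists of related genes and all genes tested, in 4 comparisons. The 40 members, at -3.0 and -3.87, lie below each of the other lists against WT, and all lists lie between -0.58 and 0.58 in the comparisons of KO+ZnO NPs.

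Markers of monocytes and macrophages moved with the members in some comparisons. Their summed level over 8 genes was 3065 to 3804 CPM in WT, 1567 to 2831 CPM in KO, 179.7 to 393.2 CPM in skin labelled WT+ZnO NPs and 338.7 to 753.1 CPM in KO+ZnO NPs. Between KO and WT none of the 8 passed the edgeR test, with 4 lower at an unadjusted p below 0.05 and 3 called lower by DESeq2 on all 12 libraries. Their median log2 fold change there was -0.92, where the median of the members was -3.0. Between skin labelled WT+ZnO NPs and WT skin all 8 fell, with a median of -4.34. Between KO+ZnO NPs and KO 7 of the 8 fell, with a median of -2.24, where the median of the members was -0.44. Between the treated groups none was called by edgeR and 5 were higher at an unadjusted p below 0.05. The median there was 1.13, where that of the members was 0.58. The interaction was called higher in 2 of the 8, with a median of 2.09, where that of the members was 3.19. None of the 8 was at 0 in any library. Their part in the members' levels was not tested.

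*Ly6c2*, a marker of inflammatory monocytes that is itself raised by interferon, had 342.8, 64.5 and 41.5 CPM in WT and 3.91, 20.7 and 30.7 CPM in KO. *Ccr2*, the chemokine receptor of the same cells, had 426, 295.3 and 315.9 CPM in WT and 67.6, 141.4 and 129.7 CPM in KO, so both genes were highest in WT replicate 1 and lower in every KO library than in every WT library. The other 6 genes of the list were highest in WT replicate 2 or 3: *Lyz2*, the lysozyme of myeloid cells, had 1899, 2020 and 1412 CPM in the 3 WT libraries, and *Cd163*, a scavenger receptor of macrophages, had 110.2, 314.4 and 316.5 CPM. The 8 markers together were highest in WT replicate 2, while the members were highest in WT replicate 1.

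Markers of plasmacytoid dendritic cells, the specialised makers of type I interferon, summed over 5 genes to 47.1 to 74.2 CPM in WT, 26.7 to 53.5 CPM in KO, 53.2 to 179.2 CPM in skin labelled WT+ZnO NPs and 31.4 to 138.7 CPM in KO+ZnO NPs. Most of that sum was *Cox6a2*, a muscle subunit of cytochrome oxidase, at 41.3 to 67.9 CPM in WT. *Siglech*, a defining surface receptor of these cells, had 2.55 to 3.09 CPM in WT and 4.17 to 4.84 CPM in KO. It had 0.237 to 0.503 CPM in skin labelled WT+ZnO NPs and 0.436 to 1.05 CPM in KO+ZnO NPs. None of the 5 was called by edgeR between KO and WT, where 1 was higher at an unadjusted p below 0.05 and DESeq2 called 0 on all 12 libraries and 2 higher on only the groups compared. In skin labelled WT+ZnO NPs 2 were called lower than in WT, while 3 of the 5 had log2 fold changes above 0 (median 0.235). Between KO+ZnO NPs and KO 1 was called lower and 1 lay above 0 (median -0.95). The part of these cells in the members' levels was not tested.

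Markers of Langerhans and dendritic cells summed to 1045 to 1857 CPM in WT and to 2387 to 3516 CPM in KO, so they stood higher in KO, where the members stood lower. They summed to 444.6 to 908.1 CPM in skin labelled WT+ZnO NPs, where the members were also low, and to 1056 to 1416 CPM in KO+ZnO NPs. Markers of T cells lay at 27.7 to 52.9 CPM in WT, at 54.2 to 103.8 CPM in KO, at 17.6 to 24.0 CPM in skin labelled WT+ZnO NPs and at 21.0 to 29.5 CPM in KO+ZnO NPs. In either list 6 of 7 genes fell between KO+ZnO NPs and KO. Their part in the members' levels was not tested.

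The summed adipocyte markers were higher in all 3 WT libraries than in the other 9, though *Lep* and *Cidec* on their own overlapped with them. The sum over 5 genes was 4501 to 6458 CPM in WT, 1551 to 3139 CPM in KO, 637.1 to 1379 CPM in skin labelled WT+ZnO NPs and 1042 to 3795 CPM in KO+ZnO NPs. No adipocyte marker was called by edgeR between KO and WT (median log2 fold change -0.99), where 1 was lower at an unadjusted p below 0.05 and DESeq2 called 1 lower on all 12 libraries and 4 lower on only the groups compared, and 4 fell between skin labelled WT+ZnO NPs and WT skin, with a median of -2.67. Endothelial markers summed to 513.4 to 545.7 CPM in WT, 311.8 to 373.6 CPM in KO, 108.7 to 233.4 CPM in skin labelled WT+ZnO NPs and 228.9 to 699.4 CPM in KO+ZnO NPs.

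Markers of the growing hair follicle lay at 7.69 to 17.0 CPM in WT, at 22.7 to 7303 CPM in KO, at 937.8 to 4483 CPM in skin labelled WT+ZnO NPs and at 194.5 to 5656 CPM in KO+ZnO NPs. Skeletal muscle markers lay at 4090 to 5781 CPM in WT, 990.2 to 3556 CPM in KO, 3831 to 18960 CPM in skin labelled WT+ZnO NPs and 2268 to 12580 CPM in KO+ZnO NPs. Between skin labelled WT+ZnO NPs and WT skin, 3 of 4 tested B cell markers, 3 of 4 tested NK cell markers and 4 of 7 keratinocyte markers fell, with medians of -3.15, -1.90 and -2.01, and 1 keratinocyte marker rose. Melanocyte markers lay at 12.5 to 34.0 CPM in WT and at 40.7 to 1154 CPM in the other 9 libraries. All 3 WT libraries were below all others in both lists. In the interaction, 6 of 7 hair follicle markers (median -10.15), 3 of 5 melanocyte markers (median -3.71) and 1 of 6 tested neutrophil markers were called lower. Called higher were 2 of 5 endothelial markers (median 1.75) and 1 of 5 adipocyte markers (median 2.52). The part of these cell types and of the hair cycle in the members' levels was not tested.

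**Figure D5:**
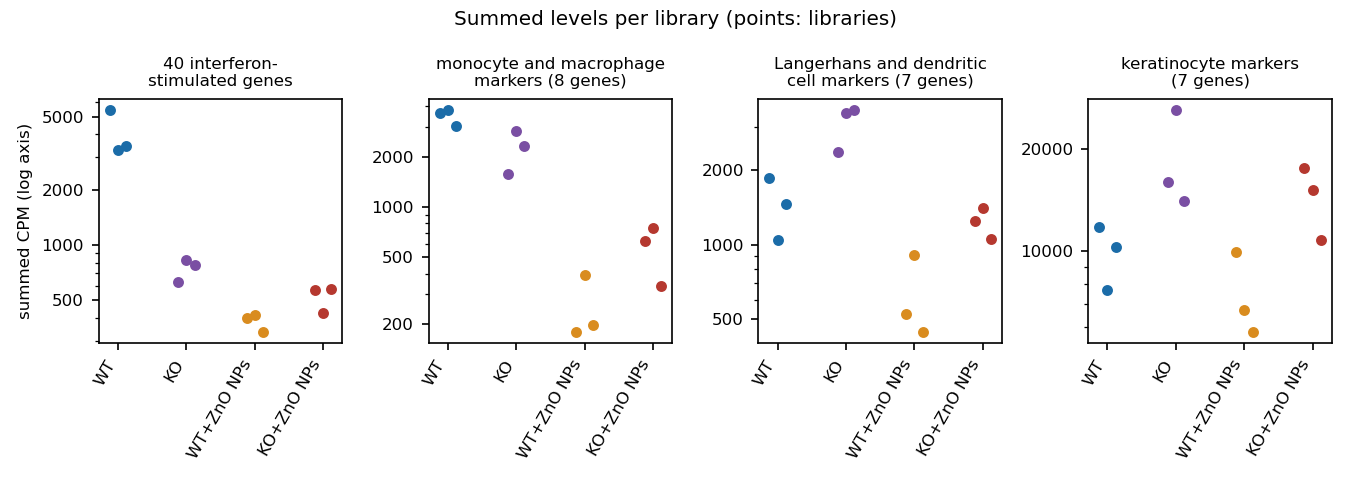
Summed CPM per library (points, log axes) of the 40 members and of the markers of 3 kinds of skin cell, by group. The members drop from WT to KO by more than the monocyte and macrophage markers do, while Langerhans and dendritic cell markers are higher in KO than in WT and lower in skin labelled WT+ZnO NPs.

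Several members lie side by side or resemble each other in sequence, so their counts are not independent. The *Phf11* genes lie within 59276913 to 59395381 of chromosome 14, the IFIT genes within 34550694 to 34650009 of chromosome 19, and *Oas1a*, *Oas2* and *Oas3* within 120730333 to 120907521 of chromosome 5 of GRCm38. Of the 50-base stretches in the transcripts of *Oas1a*, 57.6% occur in another gene, chiefly *Oas1g*. The share is 51.2% for *Ifit3* and 45.0% for *Ifit3b*, which match each other, 47.0% for *Phf11b* and 35.2% for *Phf11a*. Their separate levels are uncertain where the authors' counting could split reads between copies. *Dtx3l* and *Parp9* overlap on opposite strands, sharing 8.09% and 7.71%, and whether the counting used strand is not given in the sources used here. *Mx2* is annotated as a polymorphic pseudogene.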

How the data were processed

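RNA of 12 mouse skin samples, 3 in each of 4 groups, was sequenced, and groups were taken from the sample labels. The study describes the replicates of a group as separate mice. The authors deposited unnormalized counts of 52636 genes. Sources differ on how these counts were made: the paper names STAR and HTSeq and a NEBNext kit, the submitters' processing notes name HISAT2 2.0.5 and mm10, and the labels a TruSeq kit. Neither the annotation release nor strand use is given in the sources used here.

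From the deposited counts, 18822 genes passed edgeR's filter and were fitted in edgeR 4.0.16 (R 4.3.3) by the quasi-likelihood test with TMM factors, a coefficient per group, all 12 libraries and Benjamini-Hochberg adjustment over all genes tested. The common dispersion was 0.109. Calls were made at an adjusted p below 0.05. Shares of all genes called were computed for the main fit only, not for alternative fits or unadjusted p values. Standard errors are approximate, being the fold change over the root of F. Libraries of 1 group differed beyond sampling noise (chi-square per degree of freedom 40.75 to 178 over genes with at least 20 counts), so each counted as a sample. Names matched 52489 genes. Positions, exon lengths and transcripts are from GENCODE on GRCm38, the build mm10 denotes, and promoters from RefSeq. Y-linked transcripts counted as present above a sum of 20 CPM.

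Members, roles, lists and rules were chosen with earlier results of these data known. Values in every library are given for *Irf7*, *Irf9* and *Stat2* and, per comparison, for the 3 called members with the largest absolute log2 fold change. From each other list up to 4 called genes with the largest absolute log2 fold change and a mean of at least 1 CPM are named. Genes of the marker lists were named after their values were seen. Promoters are shown for 3 of the members with the largest change with ZnO NPs that hold the motif and for 1 without it. The alternatives tried were DESeq2 1.42.0, RLE factors in edgeR, scaling by library size, fits to only the groups compared, all genes without a filter, at least 10 counts in every library, a replicate block, Y-linked transcripts as a covariate and leaving out each library. Fits to only the libraries without Y-linked transcripts, without the WT+ZnO NPs group and without the WT group were added after seeing the data. The edgeR test was also run on counts simulated from the means and dispersions of the fit to these data.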

Additional observations from a re-analysis of the deposited data

Results flagged for a closer look

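The change with ZnO NPs differed between the KO and the WT groups in 36 of the 40 genes, by edgeR's interaction term at an adjusted p below 0.05. Each value below is the log2 fold change from KO to KO+ZnO NPs less that from WT to skin labelled WT+ZnO NPs. All 36 are above 0, and the genes were chosen with these groups' values known, so the values are a description.

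Among the regulators and sensors, the difference was 4.97 in *Irf7*, 1.48 in *Ddx58*, 2.26 in *Ifih1*, 3.66 in *Dhx58* and 4.33 in *Zbp1*. In the oligoadenylate synthetase and PKR group it was 3.85 in *Oas1a*, 2.27 in *Oas2*, 5.09 in *Oas3*, 5.0 in *Oasl1*, 3.83 in *Oasl2* and 1.82 in *Eif2ak2*. The IFIT genes had 4.74 (*Ifit1*), 3.13 (*Ifit2*), 4.82 (*Ifit3*) and 4.28 (*Ifit3b*).

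In the other antiviral effectors the difference was 4.32 in *Mx1*, 2.61 in *Mx2*, 2.83 in *Rsad2*, 2.58 in *Cmpk2* and 4.1 in *Bst2*. In *Samd9l* it was 1.85, in *Ifi44* 4.93, in *Ifi35* 1.19, in *Rtp4* 4.36 and in *Xaf1* 3.03. Around ISG15, ubiquitin and ADP-ribose it was 3.71 in *Isg15*, 2.53 in *Usp18*, 2.11 in *Herc6*, 1.83 in *Dtx3l*, 1.86 in *Parp9* and 2.78 in *Trim30a*. The *Phf11* family had 6.12 (*Phf11a*), 5.91 (*Phf11b*) and 3.72 (*Phf11d*), and *Lgals3bp* and *Plac8* had 3.26 and 5.14.

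The smallest of these values belong to *Ifi35*, an NMI partner, and *Ddx58*, the sensor RIG-I, and the largest to *Phf11a*, whose counts outside WT were few. With Y-linked transcripts as a covariate the difference was called in 25 members. Over 19 alternative fits the call ended in 8 for *Usp18*, 6 for *Ifi35* and 2 for *Cmpk2*, and in at most 1 for each of the others. Without WT replicate 1 the value of *Irf7* was 4.31. The contributions of treatment, sex and label cannot be told apart in skin labelled WT+ZnO NPs.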

How the results depend on the processing

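Over all alternatives 34 to 39 were called between KO and WT, 37 to 39 between skin labelled WT+ZnO NPs and WT skin, and 25 to 39 in the interaction (the 25 with Y-linked transcripts as a covariate), always in the direction reported. The 6 calls between KO+ZnO NPs and KO became 9 with DESeq2 on all 12 libraries, 1 with edgeR on the groups compared and 3 with the WT group left out, were 6 with DESeq2 on the groups compared, and ranged from 2 to 7 over the fits without 1 library. The 2 calls between the treated groups became 11 with DESeq2 on all 12 libraries and 6 with DESeq2 on the groups compared. They became 0 with edgeR on the groups compared, with Y-linked transcripts as a covariate and with the WT group left out, and ranged from 0 to 3 without 1 library. The cause was not tested.

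For the further list of interferon-stimulated genes, the 28 calls between KO and WT became 18 with only the libraries without Y-linked transcripts (23 to 31 without 1 library), where fewer samples entered the fit, and 36 with DESeq2 on the groups compared. The 11 between KO+ZnO NPs and KO became 17 with DESeq2 on all 12 libraries, 4 with edgeR on the groups compared and 7 with the WT group left out (4 to 12 without 1 library). The 1 between the treated groups became 7 and 3 with DESeq2 on all 12 libraries and on the groups compared, 2 with at least 10 counts in every library, and 0 with edgeR on the groups compared, without a filter, with the Y-linked covariate and with the WT group left out (0 to 2 without 1 library). The 28 of the interaction became 4 with the covariate and 32 with DESeq2 on all 12 libraries (18 to 29 without 1 library).

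Same-numbered libraries correlated at -0.343 to 0.429 in their deviations from the group means, and the main fit did not pair them. The 0.429 belongs to replicate 1 of KO+ZnO NPs and KO, both with Y-linked transcripts. The other same-numbered libraries of these groups gave 0.163 and 0.051. With the replicate number as a block, 38, 39, 4, 2 and 36 members were called in the 4 comparisons and the interaction, and 26, 38, 12, 1 and 25 genes of the further list. Scaling by library size alone moved the median log2 fold change of all genes to 0.163 between skin labelled WT+ZnO NPs and WT skin, -0.112 between the treated groups and -0.129 in the interaction. Of the single members' values under all alternatives, 4202 stayed on their side of the threshold, 104 lost and 38 gained a call, and none changed direction while called. At 21076320 to 28867802 counts a library, interferon transcripts were below what could be compared, and *Phf11a* outside WT rested on few counts.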
